A study of Mus musculus with 4 samples.

Results

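Rad21 deserts are long stretches of chromosome in which no Rad21 binding site was called. They were mapped in 2 mouse cell types, neural stem cells (NSCs) and the astrocytes (ASTs) made from them, and were chosen by the positions of the called peaks: along each autosome, every interval between consecutive peaks whose starts lay 1 Mb or more apart was taken as a desert, and the peaks at its ends as its flanking peaks. This gave 279 deserts among the 17906 intervals of NSCs (1.56% of intervals) and 314 among the 15688 intervals of ASTs (2.00%). The deserts were flanked by 531 of 17925 autosomal peaks in NSCs and by 591 of 15707 in ASTs. The number and length of the deserts follow from the rule that chose them and are given as a description.

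The study had 4 libraries, 1 Rad21 and 1 input library per cell type, without replicates, so differences between the cell types have no replicate spread to be judged by and no p-value was computed. NSCs were clonal cells derived from mouse embryonic stem cells and kept dividing in serum-free medium with EGF and FGF. ASTs were their post-mitotic progeny, made in serum-free medium with BMP and FGF. The labels add laminin to the culture and name no genotype or further treatment, and peak lists hold no expression by which to check the cell types. Rad21 was pulled down by antibody from sonicated chromatin after formaldehyde fixation. Intervals on shares are exact binomial 95% intervals and cover counting error among peaks of the same library only. The sources used here give no read totals, so the depth behind an empty stretch is unknown. Assembly gaps and sequence in which reads cannot be placed were not identified, and would be empty in both lists. A desert is therefore a stretch with no called peak, which need not be free of cohesin.

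Rad21 is the subunit that closes the cohesin ring, the complex that holds sister chromatids together and that also binds interphase chromosomes. Most interphase cohesin sites in mammals coincide with CTCF, and pairs of such sites anchor chromatin loops and the borders of topological domains. Cohesin sites are dense in gene-rich, active chromatin and sparse in gene-poor chromatin, which tends to form large domains with even internal contacts. Gene content and DNA sequence of the deserts were not analysed here, since the positions are in build mm9 and no annotation or sequence of that build was used.

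Deserts took up a large part of the autosomes. They summed to 554 Mb in NSCs, or 23.1% of the 2396 Mb between the first and last peak of each chromosome, and to 602 Mb in ASTs, or 25.1% of 2404 Mb. The median desert was 1.68 Mb long in NSCs (quartiles 1.23 and 2.47 Mb) and 1.53 Mb in ASTs (quartiles 1.23 and 2.33 Mb). Among intervals under 1 Mb the median was 56.4 kb in NSCs and 64.4 kb in ASTs. Deserts of 2 Mb or more numbered 106 and 105, those of 3 Mb or more 47 in each list, and those of 5 Mb or more 3 in NSCs and 6 in ASTs. The surplus of AST deserts thus lay among the shorter ones. Around the threshold, the shortest NSC desert measured 1007362 bp, at 104334775 to 105342137 on chromosome 1, and the longest NSC interval left out 996605 bp, at 115054778 to 116051383 on chromosome 1. The flanks of the former had fold enrichments of 4.40 and 5.28, those of the latter 5.89 and 4.62, and none was found in ASTs. The shortest AST desert measured 1005921 bp, at 7656015 to 8661936 on chromosome 8, and the longest AST interval left out 998037 bp, at 11940682 to 12938719 on chromosome 16. Their flanks had fold enrichments of 7.98 and 7.98, and of 8.75 and 9.13, with 1 flank of each found in NSCs.

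**Figure D1:**
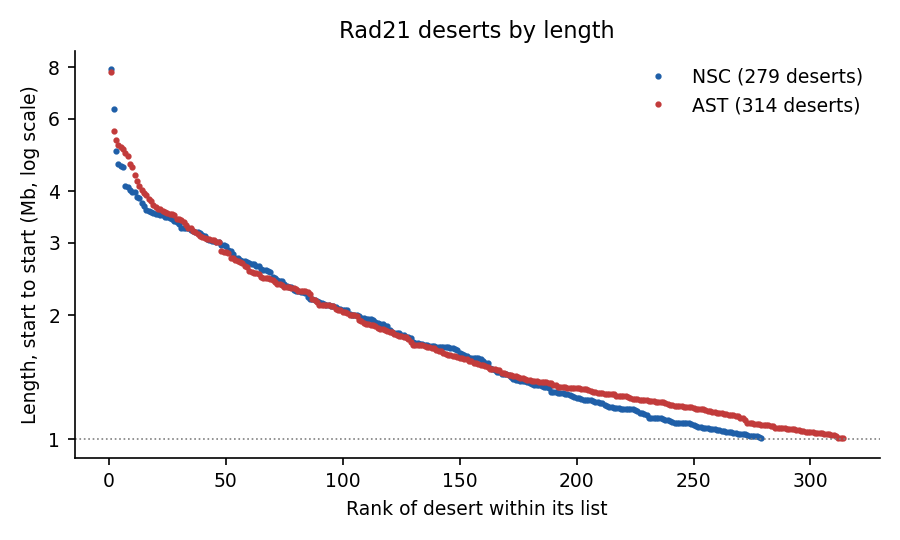
Length of each Rad21 desert (Mb, start to start, log scale, vertical axis) against its rank within its list (horizontal axis), with 279 NSC deserts in blue, 314 AST deserts in red and the 1 Mb minimum as a dotted line. The lists run close together from about 4 Mb down to 1.5 Mb, and the AST list goes on longer at the short end.

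The longest desert was the same stretch in both cell types. It lay at 39052102 to 46971857 on chromosome 7 in NSCs (7.92 Mb) and at 39052106 to 46851982 in ASTs (7.80 Mb), in mm9 coordinates. Its left flank was the same site in both lists, with a fold enrichment of 8.80 in NSCs and 9.13 in ASTs. Fold enrichment is the peak caller's ratio of summit pile-up, in fragments, to the background it took for that place. At its right end the AST desert stopped earlier, at an AST peak of fold enrichment 4.64 and 158 bp that had no NSC counterpart. The stretch held no NSC peak and, inside the NSC desert, this single AST peak.

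Chromosome 7 held a further pair of the 5 longest NSC deserts. These lay at 7252202 to 13594576 (6.34 Mb), with 3 AST peaks inside, and at 20541850 to 25149909 (4.61 Mb), with 4 AST peaks inside that all lay at or beyond 24675995. The first overlapped AST deserts of 4.40 and 1.77 Mb, and the second an AST desert of 4.13 Mb. The other members of the 5 were at 60483889 to 65498802 on chromosome 12 (5.01 Mb), where an AST desert matched 90.5% of its length, and at 26471103 to 31122696 on chromosome 4 (4.65 Mb). The chromosome 4 desert was split in ASTs by peaks of fold enrichment 11.0 and 14.1, with an AST desert of 1.91 Mb between them and AST deserts on either side.

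In ASTs the chromosome 7 stretch was followed by at 99697294 to 105304935 on chromosome 8 (5.61 Mb), at 13063955 to 18389348 on chromosome 15 (5.33 Mb), at 81245479 to 86444073 on chromosome 14 (5.20 Mb) and at 19206272 to 24337552 on chromosome 15 (5.13 Mb). NSC peaks inside them numbered 2, 3, 3 and 1. These 9 NSC peaks had fold enrichments of 4.99 to 8.21. All 4 stretches were thus interrupted in NSCs, and NSC deserts of 3.18 to 3.98 Mb lay over their larger pieces. The longest intervals free of peaks in both lists were found at 39052106 to 46851982 on chromosome 7 (7.80 Mb), at 60957905 to 65498802 on chromosome 12 (4.54 Mb), at 7252202 to 11647272 on chromosome 7 (4.40 Mb) and 20541910 to 24675995 (4.13 Mb), and at 14348405 to 18329568 on chromosome 15 (3.98 Mb). In all, 257 stretches of 1 Mb or more were free of peaks in both lists, and they made up 462 Mb, or 19.2% of the autosomal span of the joined lists.

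Deserts occurred on all 19 autosomes in both lists, and chromosomes differed in how much of their span they took. The share was highest on chromosome 7 in NSCs (35.7%, 23 deserts) and on chromosome 17 in ASTs (33.9%, 16 deserts), closely followed by chromosome 14 in both lists (34.0% and 33.9%). It was lowest on chromosome 19 in both, at 9.18% in NSCs with 4 deserts and 10.4% in ASTs with 5 deserts, none longer than 1.61 Mb. Chromosomes 9 and 11, which with chromosomes 1 and 19 had the highest peak densities, had 12.7% and 16.0% in NSCs and 17.3% and 15.2% in ASTs. Chromosome 1 had 20.1% in NSCs and 19.3% in ASTs. These densities were taken over the whole span, deserts included, so they are not independent of the share. The share was higher in ASTs on 12 chromosomes and higher in NSCs on 7, including chromosome 7 (35.7% against 31.7%). The widest differences were on chromosome 3 (22.5% in NSCs and 30.7% in ASTs), chromosome 6 (22.1% and 29.7%) and chromosome 16 (17.4% and 24.5%). The AST share of chromosome 3 includes a desert of 2.85 Mb, at 3013286 to 5860539, that held no NSC peak but lay outside the NSC span. With 1 library per cell type these differences have no replicate check.

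**Figure D2:**
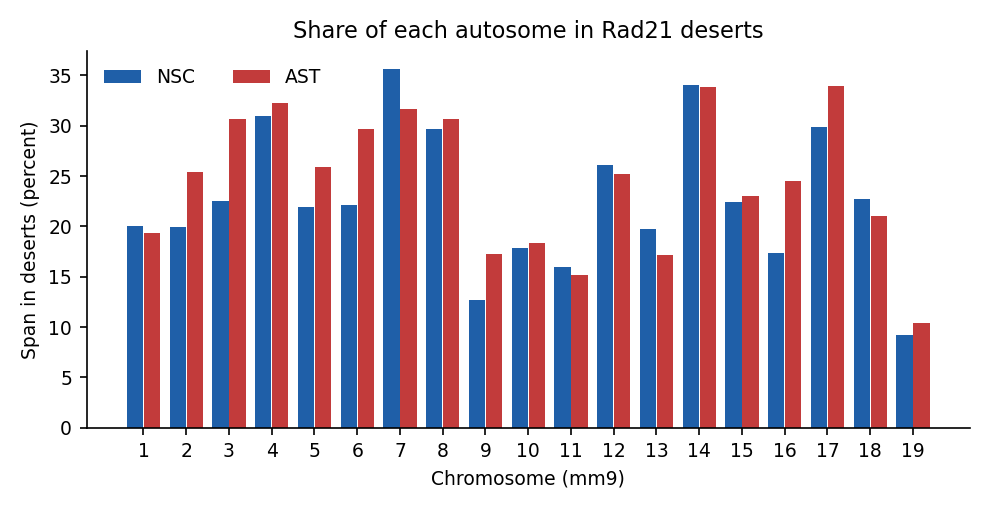
Percentage of the span of each autosome, from its first to its last peak, that lies in Rad21 deserts of 1 Mb or more (vertical axis), by chromosome (horizontal axis, mm9), with NSCs in blue and ASTs in red. Chromosomes 4, 7, 8, 14 and 17 stand near or above 30% in both lists, and chromosome 19 near 10%.

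Peak density outside the deserts also varied between chromosomes, from 8.17 to 12.0 peaks per Mb in NSCs and from 7.02 to 11.7 in ASTs. Chromosome 7 combined the highest desert share of NSCs with a density of 11.4 peaks per Mb in the rest of its span, close to the 12.0 of chromosome 11. Along the chromosomes, deserts covered more of the centromere side. With each span divided into 4 equal sections, deserts covered 25.9%, 27.4%, 21.9% and 17.2% of the sections in NSCs, from the centromeric end to the distal end, and 26.9%, 29.5%, 23.8% and 20.02% in ASTs. Mouse chromosomes have their centromere at the end from which positions are counted, and the stretch before the first peak of a chromosome was not counted as a desert.

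The next comparison asked whether the same stretches lacked Rad21 peaks in stem cells and in astrocytes. Deserts of the lists were said to coincide when they overlapped over at least 0.5 of the length of each. By this measure 215 deserts coincided, which was 77.1% of NSC deserts (71.7 to 81.9) and 68.5% of AST deserts (63.0 to 73.6). Any overlap was found for 252 of 279 NSC deserts (90.3%, 86.2 to 93.5) and 257 of 314 AST deserts (81.8%, 77.1 to 86.0). Deserts run from start to start, so deserts on opposite sides of a shared peak can overlap by a few bp and count here. An NSC desert at 123977976 to 125552139 on chromosome 3 did so with 0.000508% of its length. The level of any overlap expected by chance was not computed. By length, 84.3% of the NSC desert sequence lay in AST deserts, against 25.1% of the autosomal span as a whole, and 77.5% of the AST desert sequence lay in NSC deserts, against 23.1% of the span.

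Longer deserts coincided more often. Among NSC deserts of 1 to 1.5 Mb, 75 of 117 had a coinciding AST desert (64.1%, 54.7 to 72.8), among those of 1.5 to 2.5 Mb 78 of 93 (83.9%, 74.8 to 90.7), and among those of 2.5 Mb or more 62 of 69 (89.9%, 80.2 to 95.8). The AST shares were 54.9% (46.7 to 62.9), 78.4% (68.8 to 86.1) and 85.9% (74.98 to 93.4). All 69 NSC deserts of 2.5 Mb or more overlapped some AST desert, as did 62 of the 64 such AST deserts with NSC deserts. Among the exceptions was the AST desert at 3013286 to 5860539 on chromosome 3 (2.85 Mb), which held no NSC peak either. It began at an AST peak of fold enrichment 3.80 and lay before the first NSC peak, where no desert is counted. A short desert is more easily lost to the other list's 1 Mb minimum, so the rise with length is partly set by the rule. The median length was 1.81 Mb for coinciding and 1.25 Mb for other NSC deserts, and 1.77 and 1.32 Mb in ASTs.

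Coinciding deserts seldom had the same ends. Of the 430 ends of the 215 pairs, 177 lay within 1 kb of each other in the lists (41.2%). Both ends did so in 42 pairs, 1 end in 93 and neither in 80. The 253 remaining ends were apart by a median of 232 kb (quartiles 89.3 and 569 kb). The AST desert was the longer by 1 kb or more in 89 pairs and the NSC desert in 83, with a difference under 1 kb in 43. Coinciding deserts were thus not longer in ASTs in general.

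Peaks of the other cell type were sparse inside the deserts and absent from many. An NSC desert held no AST peak in 129 of 279 cases (46.2%, 40.3 to 52.3), 1 in 78 and 2 or more in 72. An AST desert held no NSC peak in 117 of 314 cases (37.3%, 31.9 to 42.9), 1 in 84 and 2 or more in 113. In all, 271 AST peaks lay in NSC deserts and 444 NSC peaks in AST deserts. Every one of them was found in 1 list only, because a shared peak would have ended the desert. They are therefore set beside other peaks found in 1 list only. AST-only peaks had a density of 0.489 per Mb in NSC deserts and 1.95 per Mb in the rest of the NSC span, 3.99 times as high. NSC-only peaks had 0.737 per Mb in AST deserts and 3.15 per Mb elsewhere, 4.27 times as high. Sites of 1 cell type were thus also sparse where the other cell type had a desert, although its list had no part in placing that desert. The part of sequence in which reads cannot be placed was not tested.

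**Figure D3:**
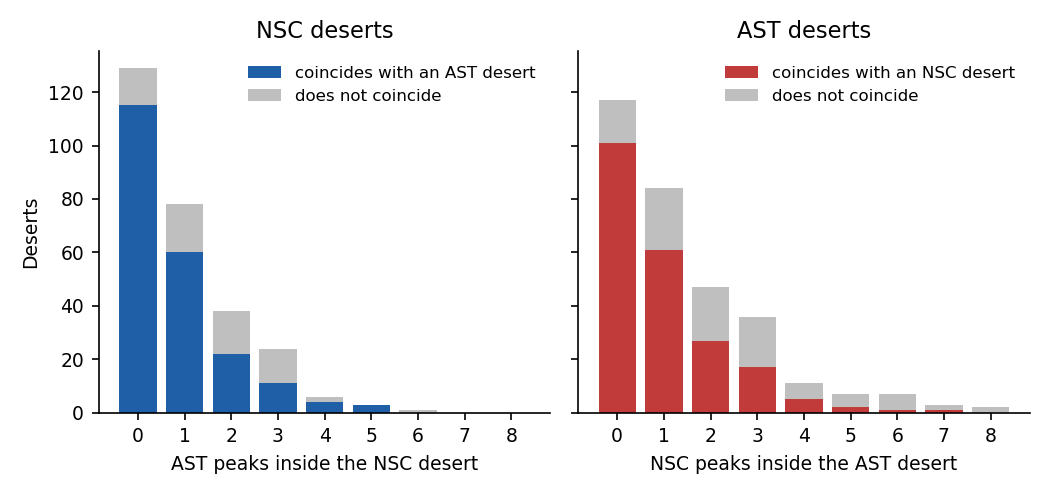
Number of deserts (vertical axis) by the number of peaks of the other cell type inside them (horizontal axis), for 279 NSC deserts on the left and 314 AST deserts on the right, with deserts that coincide with one of the other list in colour and the rest in grey. Most deserts hold 0 or 1 peak, and the most held is 6 AST peaks in an NSC desert and 8 NSC peaks in an AST desert.

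In strength and width the peaks inside resembled other cell-type-only peaks. AST peaks in NSC deserts had a median fold enrichment of 6.59 (quartiles 5.32 and 8.36) and a median width of 157 bp, and other AST-only peaks had 6.46 (5.32 and 7.98) and 162 bp. NSC peaks in AST deserts had 6.16 (5.19 and 7.92) and 172 bp, and other NSC-only peaks had 6.12 (4.99 and 7.63) and 177 bp. The peaks inside lay towards the ends of the deserts. Of the AST peaks, 178 of 271 (65.7%) had their summit in the outer 25% at either end, and of the NSC peaks 294 of 444 (66.2%), where an even spread would put 50%.

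A few strong peaks stood inside deserts. In NSC deserts 14 AST peaks had a fold enrichment of 15 or more, of which 12 were narrower than 250 bp. The strongest lay at 127573359 to 127573674 on chromosome 4 (31.9), at 75982692 to 75982922 on chromosome 8 (20.5) and at 46880507 to 46880729 on chromosome 11 (19.4). In AST deserts 8 NSC peaks were as strong, of which 0 were narrower than 250 bp. The strongest lay at 18798925 to 18799242 on chromosome 16 (21.7), at 107709484 to 107709808 on chromosome 2 (18.2) and at 142428154 to 142428429 on chromosome 1 (17.6).

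The deserts that held most peaks of the other cell type are given by 3 examples per list, the longer one first where they tied. Among NSC deserts, that at 9881600 to 11656007 on chromosome 13 (1.77 Mb) held 6 AST peaks of fold enrichment 4.91 to 7.60 and overlapped no AST desert. Those at 5244647 to 8406854 on chromosome 16 (3.16 Mb) and at 46244766 to 48672548 on chromosome 11 (2.43 Mb) each held 5, and each still overlapped an AST desert, of 1.69 and 1.25 Mb. Among AST deserts, those at 138426186 to 140465789 on chromosome 6 (2.04 Mb) and at 4776153 to 6291465 on chromosome 13 (1.52 Mb) each held 8 NSC peaks and overlapped no NSC desert. In the latter, 5 of the 8 lay close together, between 5859747 and 5862193. That at 67090090 to 70631112 on chromosome 16 (3.54 Mb) held 7. Tied with these were an NSC desert at 22404201 to 24081672 on chromosome 4 with 5 AST peaks, and AST deserts at 112301065 to 115345697 on chromosome 3 and at 100204755 to 102905816 on chromosome 10 with 7 NSC peaks each. In the first 3 AST deserts the NSC peaks had fold enrichments of 4.25 to 9.39.

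The third comparison asked whether the peaks that flank deserts were stronger, wider or more often shared than other autosomal peaks. They were none of these in either list: flanking peaks were weaker, narrower and less often shared. The rule used only positions, so fold enrichment and width were free to differ. Presence in the other list was not fully free. A peak inside a desert of the other list cannot be shared, and most deserts coincided. In NSCs the median fold enrichment was 7.63 for the 531 flanking peaks (quartiles 5.87 and 10.9) and 8.80 for the 17394 others (6.13 and 13.5). In ASTs it was 7.22 for the 591 flanking peaks (6.08 and 9.68) and 7.98 for the 15116 others (6.08 and 11.0). The quartile ranges overlapped widely in both lists.

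Counted against the median of the others, 194 of 531 NSC flanking peaks were stronger (36.5%, 32.4 to 40.8), where 48.5% of all autosomal NSC peaks were. In ASTs 247 of 591 were stronger (41.8%, 37.8 to 45.9), where 47.6% of all were. For width, 188 NSC flanking peaks exceeded the median of the others (35.4%, 31.3 to 39.6; 49.3% of all autosomal peaks), and 246 AST flanking peaks did (41.6%, 37.6 to 45.7; 49.2% of all). The median width was 206 bp for flanking and 234 bp for other peaks in NSCs, and 186 and 205 bp in ASTs. Peaks above the upper quartile of fold enrichment of their list made up 13.6% of flanking (10.8 to 16.8) and 25.3% of other peaks in NSCs, and 16.8% of flanking (13.8 to 20.01) and 23.7% of other peaks in ASTs.

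Flanking peaks were found in the other cell type less often. In NSCs 305 of 531 overlapped an AST peak by 1 bp or more (57.4%, 53.1 to 61.7), against 66.1% of the other peaks (65.4 to 66.8) and 65.8% of all. In ASTs 375 of 591 overlapped an NSC peak (63.5%, 59.4 to 67.3), against 75.7% of the others (75.03 to 76.4) and 75.3% of all. The intervals of flanking and other peaks did not overlap in either list. Both flanks were found in the other list for 96 of 279 NSC deserts and 128 of 314 AST deserts, and neither flank for 60 and 54. The same counts were not taken for shorter intervals, so they show nothing particular to deserts beyond the shares of single flanks.

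The lower share appeared at gaps of 500 kb and more. Peaks were divided by the larger of the gaps to their neighbours. The shares of NSC peaks with an AST counterpart were 64.5% for gaps under 50 kb, 67.0% for 50 to 200 kb, 66.7% for 200 to 500 kb, 61.9% (58.8 to 65.0) for 500 kb to 1 Mb and 57.4% for 1 Mb or more. The shares of AST peaks with an NSC counterpart were 75.5%, 76.2%, 76.0%, 71.7% (68.8 to 74.5) and 63.5%. Median fold enrichment went from 8.93 at 200 to 500 kb to 8.26 and 7.63 in NSCs, and from 7.98 to 7.60 and 7.22 in ASTs. The peaks just short of the 1 Mb minimum were thus already intermediate between these classes. NSC peaks with gaps under 50 kb had a median of 8.21, close to the 8.26 at 500 kb to 1 Mb. Fold enrichment in NSCs therefore did not fall steadily with the gap.

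**Figure D4:**
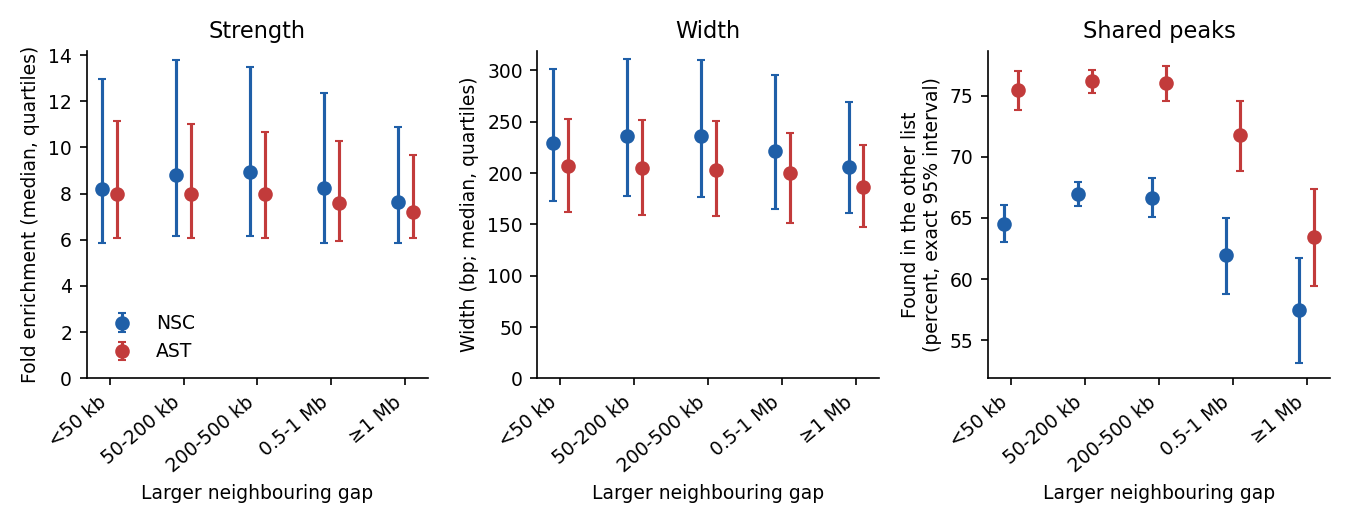
Fold enrichment (left, median and quartiles), width in bp (middle, median and quartiles) and percentage of peaks also present in the other list (right, exact 95% intervals, axis not starting at 0) by the larger gap to a neighbouring peak (horizontal axis), with NSC peaks in blue and AST peaks in red. All 3 measures are lowest for the flanking peaks of deserts, at 1 Mb or more, and the share found in the other list drops from 66.7% to 57.4% in NSCs and from 76.0% to 63.5% in ASTs over the last 3 classes.

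Since weak peaks are less often shared, the shares were also compared within 4 bins set at the quartiles of fold enrichment of each list, which ties make unequal in size, above all in ASTs. In NSCs the shares of flanking and other peaks were 34.7% (27.0 to 43.0) and 31.6% in the lowest bin, 45.8% (38.4 to 53.4) and 54.4% in the next, 76.7% (68.6 to 83.6) and 80.9% in the third, and 97.2% (90.3 to 99.7) and 96.8% in the highest. Only in bin 2 did the interval of the flanking peaks miss the share of the others. With the other NSC peaks weighted to the bins of the flanking peaks, their share was 60.5%, which lay inside the interval of the flanking peaks (53.1 to 61.7). The lower share of NSC flanks was therefore not distinguishable, at this number of peaks, from that of other peaks of like strength.

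In ASTs a difference remained among peaks of like strength, in bins 2 and 4. The shares were 52.3% (44.6 to 59.9) against 56.8%, 58.8% (51.0 to 66.3) against 72.9%, 78.4% (70.9 to 84.7) against 84.6%, and, in the highest bin, 68.7% (58.6 to 77.6) against 90.6%. Weighted to the bins of the flanking peaks, the other AST peaks reached 74.0%, above the interval of the flanks (59.4 to 67.3). The share of flanking peaks in bin 4 was below that in bin 3, with overlapping intervals, whereas among other AST peaks it was higher in bin 4.

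**Figure D5:**
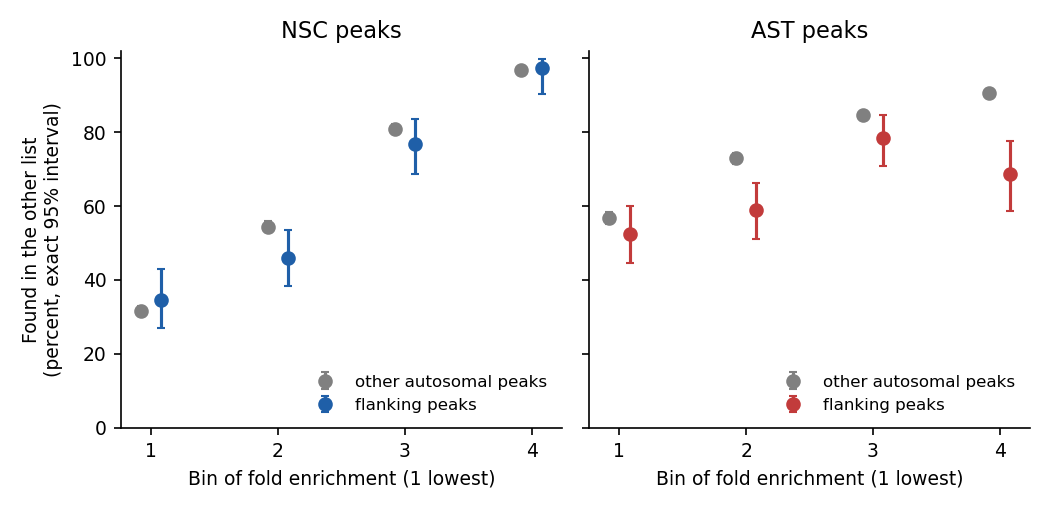
Percentage of peaks also present in the other list (vertical axis, exact 95% intervals) by fold enrichment bin (horizontal axis, 1 lowest), for NSC peaks on the left and AST peaks on the right, with flanking peaks in colour and other autosomal peaks in grey. The interval of the flanking peaks misses the share of the others in bin 2 in NSCs (45.8% against 54.4%) and in bins 2 and 4 in ASTs (58.8% against 72.9% and 68.7% against 90.6%).

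The strong AST flanks that were missing from NSCs were narrow in all but 1 case. In the highest bin 58 of 99 AST flanking peaks were under 250 bp (58.6%, against 40.2% of the others), and 28 of these 58 were found in NSCs (48.3%, 35.0 to 61.8) against 77.6% of the other narrow peaks (75.4 to 79.8). Of the 41 wider ones, 40 were found in NSCs (97.6%, 87.1 to 99.9), against 99.3% of the others. Narrow peaks of fold enrichment 15 or more made up 17 of the 30 flanks of that strength in ASTs (56.7%, against 25.9% of other peaks) and 2 of 51 in NSCs (3.92%, against 5.15%). The limit of 250 bp was taken over from earlier results of these data. With the peaks of fold enrichment 15 or more and under 250 bp taken out of both lists, and the deserts redrawn, ASTs had 318 deserts, and the share was 63.5% for AST flanking and 74.8% for other AST peaks. This removal left narrow peaks of bin 4 with a fold enrichment under 15 in place and brought in new flanks, so the part of the narrow peaks of bin 4 in the lower sharing of AST flanks was not tested.

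Flanking peaks without a counterpart mostly stood inside a desert of the other cell type. Of the 226 NSC flanking peaks missing from the AST list, 171 lay in an AST desert (75.7%, 69.5 to 81.1), as did 4.63% of the other NSC-only peaks. Of the 216 such AST peaks, 154 lay in an NSC desert (71.3%, 64.8 to 77.2), against 3.19% of the other AST-only peaks. Since each flanking peak has an empty stretch of 1 Mb on at least 1 side in its own list, and deserts coincide, a high share follows from the choice of the peaks. The part of these peaks in the lower sharing of flanks, also among AST peaks of like strength, was not tested.

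Flanks differed among themselves by how isolated they were. With the next peak on the other side under 50 kb away, 98 of 157 NSC flanks (62.4%, 54.3 to 70.0) and 113 of 142 AST flanks (79.6%, 72.0 to 85.9) were shared. With the next peak 200 kb to 1 Mb away it was 80 of 164 (48.8%, 40.9 to 56.7) and 119 of 218 (54.6%, 47.7 to 61.3). Flanks that were the first or last peak of a chromosome had no next peak but were kept in the classes, where their isolation is not known. A total of 27 NSC and 37 AST peaks had a desert on each side, and of these 10 (37.0%, 19.4 to 57.6) and 13 (35.1%, 20.2 to 52.5) were shared. A peak of 1 list that splits a long stretch empty in the other list is isolated and cannot be shared. The lower sharing of isolated flanks is therefore partly set by the choice of peaks by their gaps, and how far was not tested. The interval of AST flanks with a neighbour under 50 kb away held the 75.7% of other AST peaks, and the intervals of the more isolated AST flanks lay below it. The isolated NSC peaks were weak, with a median fold enrichment of 6.16 against 7.90 for flanks of 1 desert, while the isolated AST peaks had 8.36 against 7.22.

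Left and right flanks were shared in 58.1% and 54.8% of NSC deserts and in 62.4% and 61.1% of AST deserts, so the sides differed by less than the counting error. Flanks of coinciding deserts were shared in 58.8% of cases in NSCs (53.9 to 63.5) and flanks of the remaining deserts in 52.3% (42.5 to 61.9). In ASTs it was 61.0% (56.2 to 65.7) and 69.4% (61.9 to 76.2).

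Single-peak islands between deserts included a few strong sites. A site on chromosome 6 flanked deserts on both sides in both cell types, at 69466251 to 69466477 in NSCs (fold enrichment 13.8, gaps of 2.20 and 1.19 Mb) and at 69466241 to 69466491 in ASTs (46.0, gaps of 2.00 and 1.25 Mb). On chromosome 18 an NSC peak at 86660100 to 86660414 (19.1) stood between gaps of 1.20 and 2.10 Mb, and was found in ASTs too (12.2), where it flanked a desert. On chromosome 7 an NSC peak at 48888217 to 48888455 (8.53) stood between gaps of 1.36 and 1.79 Mb and was shared. In ASTs a peak at 148980096 to 148980335 on chromosome 3 (35.0) stood between gaps of 2.12 and 1.07 Mb. It matched an NSC peak of 6.98 that flanked no desert. Another, at 80357335 to 80357564 on chromosome 5 (18.6), stood between gaps of 2.12 and 1.59 Mb and was not found in NSCs. Fold enrichments are relative to each list's own background and need not mean the same in both.

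Larger islands were more usual. Of 260 islands between successive NSC deserts of a chromosome, 27 held 1 peak, 27 held 2 to 5 and 206 held 6 or more, with a median of 31.5 peaks. Of 295 AST islands it was 37, 43 and 215, with a median of 21 peaks. On the inhabited side, the neighbour of a flanking peak lay at a median of 103 kb in NSCs (quartiles 38.9 and 260 kb) and 142 kb in ASTs (48.3 and 331 kb), farther than the 58.0 and 67.0 kb between adjacent autosomal peaks in general. Peaks were thus farther apart beside a desert than elsewhere in both lists.

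The strongest flanks of each list were found in both cell types. In NSCs they lay at 15042822 to 15043231 on chromosome 8 (39.3), at 33817532 to 33817986 on chromosome 11 (37.6), at 4626070 to 4626678 on chromosome 17 (31.9), at 47528822 to 47529156 on chromosome 7 (28.2) and at 137859175 to 137859513 on chromosome 2 (24.9). All 5 were shared, and those on chromosomes 8 and 17 also flanked an AST desert. In ASTs they were the same chromosome 17 site (71.1), the chromosome 6 and 3 sites named above, at 104736088 to 104736332 on chromosome 14 (45.6) and at 36983409 to 36983709 on chromosome 10 (33.8). All 5 of these were shared as well, and those on chromosomes 17, 6 and 10 also flanked an NSC desert. Of the AST sites, those on chromosomes 6, 14 and 3 were 251, 245 and 240 bp wide, and their NSC partners had fold enrichments of 13.8, 27.3 and 6.98.

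The caller's local background was recovered from the deposited values. Its median was 3.22 fragments for both flanking and other peaks in NSCs and 2.63 for both in ASTs. The lower quartiles were also 3.22 and 2.63, so many peaks sat at 1 usual level. Equal medians therefore do not show that the groups were alike. The upper quartile was 3.38 for flanks and 3.75 for other peaks in NSCs, and 3.16 for both in ASTs. The background was over 1.1 times the usual level at 23.4% of NSC flanks (19.8 to 27.2) and 27.0% of other NSC peaks, and at 33.2% of AST flanks (29.4 to 37.1) and 33.9% of others. The pile-up itself was lower at flanks, with a median of 27.4 fragments against 32.1 in NSCs and 22.0 against 24.0 in ASTs. The background was solved from the fold enrichment and p of the same peaks and is no separate measurement, and its part in the lower fold enrichment of flanks was not tested.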

How the data were processed

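Rad21 ChIP-seq peak lists of 1 NSC and 1 AST library were used. The input libraries were not analysed here. Bowtie 1.0.0, MACS2 2.0.9 and build mm9 are named in the submitters' processing notes. The caller's settings, read totals and the use of the input as control are not given in the sources used here. For each peak the authors deposited the start, end and summit, the fold enrichment (a ratio of pile-up to local background), −log10 values of p and q, and a score, the whole-number part of 10 times the −log10 q. The lowest −log10 q was 1.02 in NSCs and 1.03 in ASTs.

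Gaps were measured from start to start. The members, limits and lists were chosen with earlier results of these data known. Positions count from 1. Shares have Clopper-Pearson 95% intervals. No test was run, since each cell type has 1 library. Background per peak was solved from fold enrichment and −log10 p as a Poisson tail (scale 0.944 in NSCs and 1 in ASTs), which gave back the −log10 p within 0.05 for 99.7% of NSC and 99.99% of AST peaks. Named regions were the 5 longest deserts and the 3 with most peaks of the other list, per list, the 5 longest stretches empty in both, the 5 strongest flanks and the 3 strongest peaks with deserts on each side, per list, the intervals next to 1 Mb, and the chromosomes with the highest and lowest shares. The strongest peaks inside deserts, and further chromosomes, were named after their values were seen. The alternatives tried were a minimum −log10 q of 5 or 10, lists of equal length, gaps of 750 kb or 1.5 Mb or from end to start, other overlap rules or summits within 200 bp, and comparison within chromosomes. Removal of peaks with background over 2 times the usual, and of narrow strong peaks, were chosen as further alternatives once the values were known. The scripts were tested on simulated data with planted deserts. Python 3.11.15, matplotlib 3.10.9, scipy 1.17.1, pandas 2.3.3 and numpy 2.4.6 were used.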

Additional observations from a re-analysis of the deposited data

Results flagged for a closer look

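Chromosome X was outside the rule, which takes autosomes alone, and is given here because the comparisons did not use its peaks. It held 29 NSC intervals of 1 Mb or more among 479 (6.05%) and 35 AST intervals among 448 (7.81%), counts that come from the same measure of gaps and are a description. These covered 51.0% of the span of the chromosome in NSCs and 53.8% in ASTs, more than on any autosome. The longest ran from 23142784 to 33374551 in NSCs (10.2 Mb) and from 26231460 to 33419808 in ASTs (7.19 Mb), longer in NSCs than any autosomal desert. The difference from autosomes was not tested.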

How the results depend on the processing

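No paired analysis was possible because each cell type has 1 Rad21 library. Depth is unknown, so an empty stretch cannot be told from one with peaks below the threshold. Nor can it be told from sequence in which reads cannot be placed, which bears on the deserts that coincide. No difference between the cell types has a replicate check. Of 192 values recomputed, 19 moved beyond the interval of the value reported (beyond 1.5 times for numbers of deserts, shares of span and lengths). The other values, 80 of them lengths of single deserts, did not. No comparison of flanking with other peaks changed direction: the flanks were lower in 58 of 58, and the share of the others lay above the flanks' interval in 57. The exception was the fold enrichment of AST flanks with a gap of 1.5 Mb (42.9%, 37.3 to 48.6, against 47.7%). Gaps from end to start left all shares of flanks as they were and so add no check. The number of deserts was 441 in NSCs and 488 in ASTs with 750 kb, and 162 and 161 with 1.5 Mb, where the order of the cell types turned. Coinciding deserts were 90.3% of NSC and 81.8% of AST deserts with any overlap, 48.7% and 43.3% with overlap over 0.8 of each, and 15.1% and 13.4% when the flanking peaks had to be the same. For ASTs it was 62.7% at a −log10 q of at least 10 and 73.9% with 1.5 Mb. With 1.5 Mb it was 73.5% for NSCs. Coinciding deserts come in pairs, 1 from each list, so the order of these shares is set by the numbers of deserts. Its turn with 1.5 Mb is therefore no separate result. At a −log10 q of at least 10, AST deserts covered 39.3% of the span, the shared share was 50.1% for NSC flanks (57.8% for others) and 74.7% for AST flanks (80.6% for others), and 40.3% of NSC flanks were wider than the median. The shared share was 64.7% for NSC flanks with lists of equal length (72.8% for others), and for AST flanks 59.4% with 1.5 Mb (75.6%) and 59.1% with reciprocal overlap (69.4%). Removing peaks of high background or narrow strong peaks, both chosen after seeing the data, moved none of these values. With lists of equal length NSCs had 303 deserts and ASTs 314.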
